A study of Bos grunniens and Bos grunniens x Bos taurus with 12 samples.

Results

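Glutathione and antioxidant enzymes were followed through testis ribosome profiling of yak and cattle–yak. The set was chosen by gene symbol alone, as every row of the annotation named for a glutathione transferase (classes A, K, M, O, P, T and Z), a microsomal glutathione transferase, a glutathione peroxidase, a peroxiredoxin, a superoxide dismutase or a gene starting with TXN, together with CAT, NQO1, HMOX1, HMOX2, GSR, GCLC, GCLM and GSS. This gave 44 of 20965 genes. A further 18 rows carry no symbol but are described in the annotation as proteins of the same families, among them thioredoxin, glutathione reductase, manganese superoxide dismutase and heme oxygenase 2, whose symbols appear on no row. They are not members and are described separately.

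The libraries hold ribosome-protected fragments from frozen whole testis, so the values are footprint levels and neither mRNA nor protein. There were 4 groups of 3 libraries. Y6M, Y18M and Y4Y were male yaks of 6 months, 18 months and 4 years, labelled as juvenile, pubertal and sexually mature, and CY were male cattle–yaks labelled with an age of 4 years. The cattle–yaks were offspring of Jersey bulls and Gannan yak cows, a hybrid whose males are sterile. No agent or engineered allele was involved. The labels describe castration for all animals, whereas the study's methods describe euthanasia for the yaks of 4 years. Between CY and Y4Y, genotype and the way of collection therefore cannot be told apart. The study also reports a larger aligned share of reads and a shorter main footprint length in cattle–yak than in yak. These differences cannot be told apart from genotype either. With 3 libraries for 3 animals a group, and no label tying a library to one animal, the tests measure the spread between libraries.

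Glutathione is made by glutamate–cysteine ligase (GCLC and GCLM) and then glutathione synthetase (GSS). It feeds the glutathione peroxidases, which reduce hydrogen peroxide and lipid hydroperoxides, and the transferases, which couple it to reactive compounds. Superoxide dismutases turn superoxide into hydrogen peroxide, which is cleared by catalase, the glutathione peroxidases and the peroxiredoxins, the last of which are recharged by thioredoxin and thioredoxin reductase with electrons from NADPH. In the testis several of these genes have germ cell forms: GPX4 also becomes a structural protein of the sperm midpiece, TXNRD3 is the thioredoxin and glutathione reductase of spermatids, and TXNDC8 and TXNDC2 are thioredoxins of the spermatid and sperm tail.

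Deposited counts summed to between 16304058 and 52616039 per library. Y4Y had the shallowest libraries (16304058 to 17862516) and CY the deepest (38437889 to 52616039). The Y18M libraries differed among themselves. On log2(FPKM + 1), where FPKM is fragments scaled for the length of the gene and the size of the library, Y18M-2 correlated at 0.88 and 0.90 with the other Y18M libraries but at 0.98, 0.97 and 0.97 with the 3 Y4Y libraries, whereas Y18M-1 correlated at 0.98, 0.98 and 0.98 with the 3 Y6M libraries and at 0.97 with Y18M-3. The summed FPKM of 6 round spermatid markers was 662 in Y18M-2 and 1.61 and 4.99 in the other 2, against 1160.2 to 1834 in Y4Y, 3.50 to 7.84 in CY and 0.38 to 0.96 in Y6M. Values are therefore given for each library, and a comparison of Y4Y with Y6M was added after the difference among the Y18M libraries was seen. The marker sums also differed between CY and Y4Y. Elongating spermatid markers (4 of 9 have a row) summed to 76.1 to 159 FPKM in CY and 8729 to 11921 in Y4Y. Most of the CY sum was ODF2, at 132, 71.8 and 76.7 FPKM in CY and 8.16 to 15.6 in Y6M. Most of the Y4Y sum was TNP1, at 6993 to 10154 FPKM. SUN5, TNP1 and ODF1 were at 0 in CY-3 and above 0 in the other 2 CY libraries. Spermatogonia markers (5 of 6) summed to 1240.3 to 1382 in CY and 591 to 874 in Y4Y. Of these, KIT and GFRA1 overlapped between CY and Y4Y, while ZBTB16, UCHL1 and DMRT1 did not. Spermatocyte markers (7 of 7) summed to 308 to 468 in CY and 460 to 472 in Y4Y, which overlap. Sertoli cell markers (5 of 7) summed to 1120.1 to 1366 and 594 to 819.5, Leydig cell markers (2 of 6, STAR and CYP11A1) to 580.2 to 1041 and 58.8 to 188, and peritubular myoid markers (5 of 5) to 780.2 to 1291 and 211 to 219. Macrophage markers (4 of 5) summed to 41.2 to 52.1 and 47.2 to 67.4. Of the red blood cell and epididymis markers with a row (1 of 4 and 3 of 4), the sums stayed at or below 0.050 and 1.06 FPKM in all 12 libraries. The part of these differences, and of depth, in the results below was not tested, and in whole tissue fewer cells of a type and less RNA per cell cannot be told apart.

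The comparison of cattle–yak with yak of 4 years asks which of these genes differ between the sterile hybrid and the mature yak testis. Members higher in CY included 4 of the 5 peroxiredoxins, catalase, SOD3, GCLC and GSS, NQO1 and 4 of the 10 glutathione transferases, while TXNDC8, GSTO2, GSTT4, TXNRD3 and GPX4 were lower. A gene was called where the quasi-likelihood test of edgeR, adjusted after Benjamini and Hochberg over all genes, gave an adjusted p under 0.05 and the log2 fold change reached 1 in either direction, which are the study's thresholds. Of the 44 members, 42 had enough counts to be tested, 15 were called higher in CY and 5 lower, and 22 were not called. That is 35.7% of the tested members higher and 11.9% lower, where 17.1% and 27.0% of all 16498 genes tested were called in those directions. The median log2 fold change was 0.69 over the tested members and −0.00 over all genes. In FPKM, all 3 CY libraries lay above all 3 Y4Y libraries for 24 members and below them for 9, or 57.1% and 21.4% of those tested, against 34.3% and 36.8% of all genes. As a share of all FPKM, the 44 members together took 1.29 to 1.41% in CY, 0.84 to 0.92% in Y4Y, 1.02 to 1.57% in Y18M and 1.52 to 2.17% in Y6M.

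**Figure D1:**
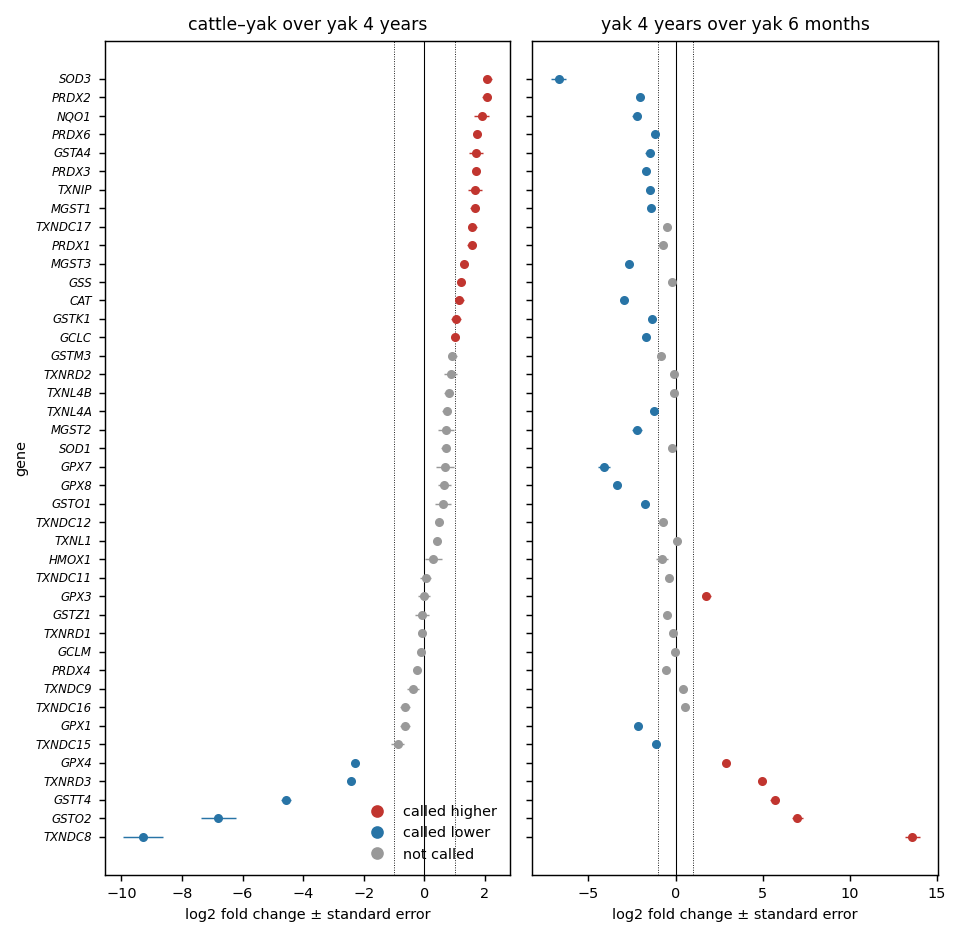
Log2 fold change (x axis, bars are the standard error) of the 42 members tested in cattle–yak over yak of 4 years (left) and, in the same order, in yak of 4 years over yak of 6 months (right), with 3 libraries a group. Red and blue mark calls, dotted lines a log2 fold change of 1 in either direction; the 2 panels share the Y4Y libraries, so their opposite signs are not independent. TXNDC8, GSTO2, GSTT4, TXNRD3 and GPX4 sit far below 0 on the left. The position of TXNDC8 on the right is no measured fold, since Y6M had 0 counts.

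The second comparison, Y4Y over Y6M, asks how the same genes differ between the mature and the juvenile yak testis. Of 42 members tested, 6 were called higher and 19 lower in Y4Y, or 14.3% and 45.2%, against 31.0% and 24.7% of 16133 genes. In FPKM, 12 members had all Y4Y libraries above all Y6M libraries and 19 of those tested had them below, against 53.1% and 23.3% of all genes. Both comparisons contain the Y4Y libraries, so a member low or high there moves in opposite senses in both. Scaling matters against Y6M: with library size alone in place of TMM, the trimmed mean of M-values, the median log2 fold change of all genes moved from 0.08 to 0.64 and the members called lower went from 19 to 12, with 7 higher. The calls lost in this way were GSTA4, GSTK1, MGST1, PRDX6, TXNDC15, TXNIP and TXNL4A. Some somatic marker sums also differed between the ages, and others overlapped. Peritubular myoid markers summed to 141 to 242 FPKM in Y6M and 211 to 219 in Y4Y, which overlap. Macrophage markers also overlapped, at 48.9 to 60.3 in Y6M and 47.2 to 67.4 in Y4Y. Sertoli cell markers summed to 6097 to 7542 FPKM in Y6M and 594 to 819.5 in Y4Y. Leydig cell markers summed to 1585 to 2506 in Y6M and 58.8 to 188 in Y4Y. Endothelial markers (4 of 4) summed to 21.2 to 29.8 in Y6M and 10.9 to 14.2 in Y4Y. Of these 4, 3 were called lower in Y4Y. VWF ran the other way, at 1.82 to 2.51 FPKM in Y6M and 4.36 to 6.59 in Y4Y. The part of these marker differences in the members lower in Y4Y was not tested. Y18M over Y6M called 0 of 42 members (9 had an unadjusted p below 0.05, and DESeq2 called 2 higher and 3 lower), where 0.0202% and 0.0471% of all genes were called higher and lower. Y4Y over Y18M also called 0 of 42 (20 had an unadjusted p below 0.05, and DESeq2 called 2 higher and 12 lower), against 0.0% and 0.0371% of all genes. In FPKM, 11 members lay wholly above and 2 wholly below in Y18M over Y6M, against 29.7% and 8.05% of all genes, and 8 and 17 in Y4Y over Y18M, against 31.0% and 23.4%. Leaving out Y18M-2 gave 5 members higher and 16 lower in Y4Y over Y18M, and leaving out Y18M-1 gave 2 higher and 8 lower in Y18M over Y6M.

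**Figure D2:**
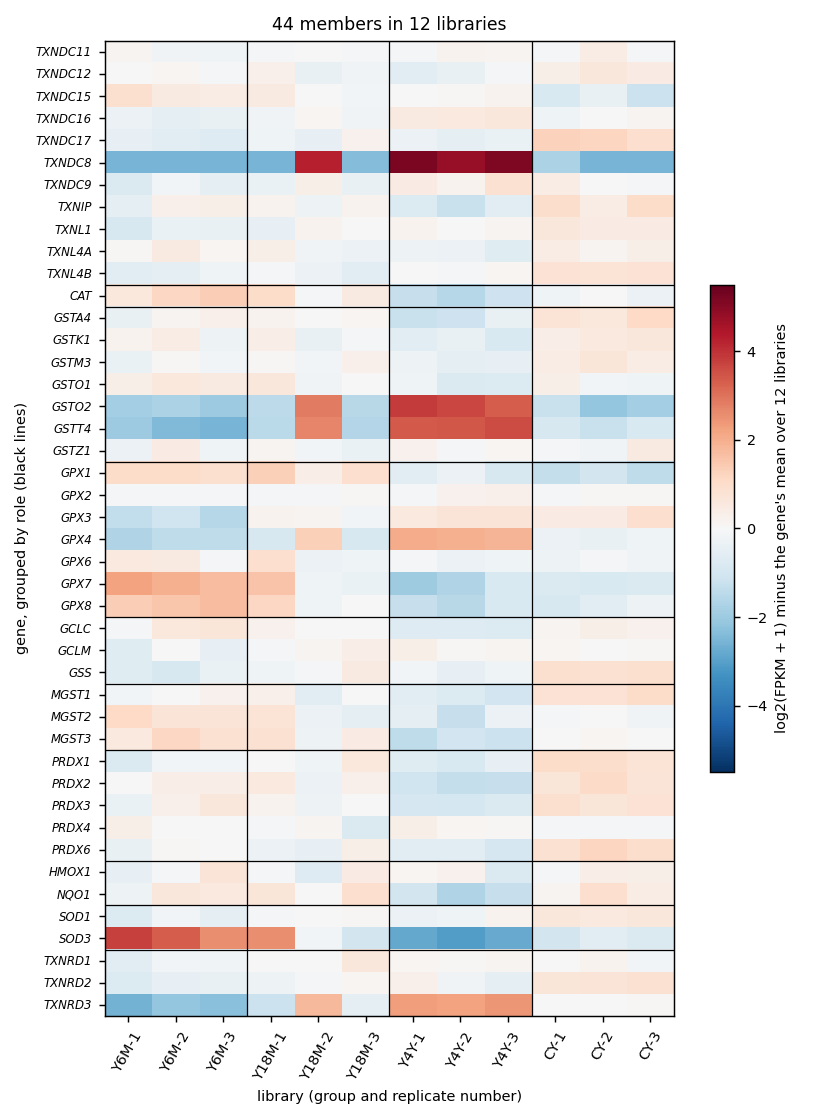
Footprint level of each of the 44 members (rows, grouped by role) in the 12 libraries (columns), as log2(FPKM + 1) minus that gene's mean over the 12 libraries; red is above and blue below the gene's mean. Y18M-2 looks like the Y4Y libraries for TXNDC8, GSTO2, GSTT4, GPX4 and TXNRD3, and most rows of peroxiredoxins are red in CY.

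The 5 members lower in CY were TXNDC8, GSTO2, GSTT4, TXNRD3 and GPX4, and in Y4Y over Y6M, which shares the Y4Y libraries, their log2 fold changes were 13.57, 7.0, 5.69, 4.96 and 2.87. The fitted 13.57 for TXNDC8 is neither a measured fold nor a bound, since Y6M had 0 counts. TXNDC8, a thioredoxin-like protein of spermatids, was at 0, 0 and 0 FPKM in Y6M, 0, 111 and 0.10 in Y18M, 209, 159.7 and 203 in Y4Y and 0.74, 0 and 0 in CY. It was high in the Y4Y libraries and Y18M-2 and near 0 in every other library, with 0 counts in all of Y6M and 16 counts in CY, all of them in CY-1. Y4Y stood 637-fold (95% counting interval 392 to 1116) above CY in counts scaled to library size. It stood at least 803-fold above Y6M, taking 3 counts per library as the floor. The fit of CY over Y4Y gave −9.29 on the log2 scale (standard error 0.66, adjusted p = 8.00e-06). The size of that fitted value rests on CY-1, without which CY has no count and the fit gave −13.99, which is no bound.

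The libraries in which TXNDC8 was high are those with high spermatid marker sums, and the same holds for the next 4 genes; the part of cell make-up in these results was not tested. GSTO2, an omega-class transferase that reduces dehydroascorbate, was at 0.30, 0.45 and 0.20 FPKM in Y6M, 0.76, 33.8 and 0.68 in Y18M, 68.3, 60.4 and 46.6 in Y4Y and 1.07, 0.10 and 0.32 in CY. Only the Y4Y libraries and Y18M-2 exceeded 2 FPKM. CY had 41, 3 and 9 counts. CY over Y4Y gave −6.80 on the log2 scale (standard error 0.57, adjusted p = 2.02e-05), or −8.12 without CY-1, and Y4Y exceeded Y6M 190.5-fold (95% counting interval 126 to 305) in counts scaled to library size. Its paralogue GSTO1, the widely expressed omega-class enzyme, went the other way with age, at 19.3, 23.5 and 22.3 FPKM in Y6M, 23.98, 13.3 and 15.5 in Y18M, 13, 8.49 and 8.70 in Y4Y and 19.1, 13.7 and 12.8 in CY. GSTO1 was lower in Y4Y than in Y6M (log2 fold change −1.75, standard error 0.23, adjusted p = 1.28e-04) and overlapped between CY and Y4Y (log2 fold change 0.61, standard error 0.27, adjusted p = 0.0793).

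GSTT4, a theta-class transferase, was at 3.13, 2.06 and 1.85 FPKM in Y6M, 4.98, 107 and 4.43 in Y18M, 170.3, 177 and 197 in Y4Y and 8.12, 6.21 and 8.25 in CY. CY kept low values that lay between those of Y6M and Y4Y without overlap. The CY over Y4Y test gave −4.58 on the log2 scale (standard error 0.16, adjusted p = 4.87e-07), and CY over Y6M gave 1.11 on the log2 scale (standard error 0.33, adjusted p = 0.0191), a call that was lost when Y6M-2, Y6M-3, CY-1 or CY-3 was left out (adjusted p 0.055 to 0.0651).

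TXNRD3, which reduces both thioredoxin and glutathione disulfide in spermatids, was at 0.77, 1.48 and 1.19 FPKM in Y6M, 3.77, 35.8 and 6.76 in Y18M, 51.6, 48.7 and 56.7 in Y4Y and 9.54, 10.04 and 10.2 in CY. The order Y6M, CY, Y4Y held without overlap, with Y18M-1 and Y18M-3 below CY and Y18M-2 between CY and Y4Y. It was lower in CY than in Y4Y (log2 fold change −2.44, standard error 0.11, adjusted p = 1.20e-06) and higher in CY than in Y6M (log2 fold change 2.55, standard error 0.23, adjusted p = 5.93e-05).

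GPX4, the selenoenzyme that reduces lipid hydroperoxides in membranes, was the most abundant glutathione peroxidase of the mature testis. It was at 108, 130.4 and 131 FPKM in Y6M, 188, 856 and 189 in Y18M, 1411, 1341 and 1244 in Y4Y and 271, 259 and 289 in CY. Its mean FPKM ranked 72 among all genes in Y4Y and 705 in CY. All 3 CY libraries lay below Y4Y and above Y6M and the Y18M libraries other than Y18M-2. CY was 4.85-fold lower than Y4Y (log2 fold change −2.28, standard error 0.12, adjusted p = 2.39e-06), whereas CY over Y6M fell short of the call (log2 fold change 0.61, standard error 0.12, adjusted p = 0.00237) and passed it with library size alone (log2 fold change 1.15, adjusted p = 2.06e-04).

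**Figure D3:**
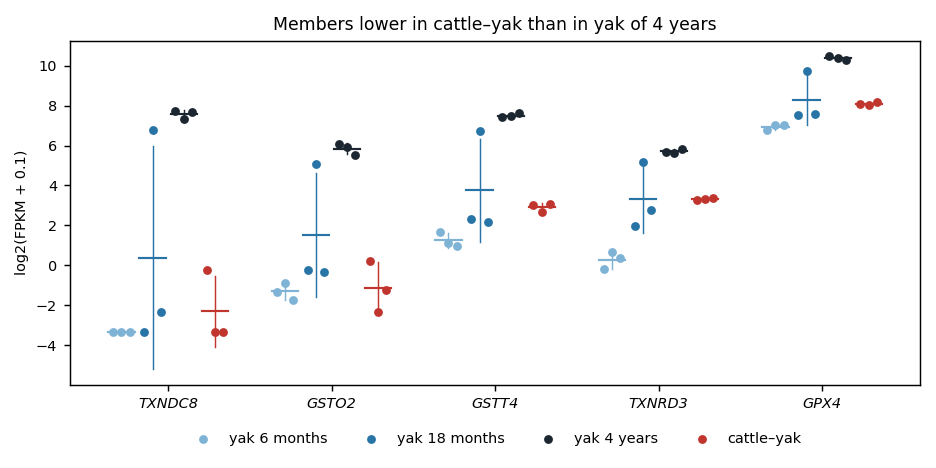
Footprint levels of the 5 members called lower in cattle–yak than in yak of 4 years, as log2(FPKM + 0.1) on the y axis; each point is a library, horizontal bars are group means and vertical bars the standard deviation of 3 libraries. The wide bars at 18 months hold Y18M-2, which lies near the 4-year libraries for each gene.

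The make-up of the glutathione peroxidase family, summed per length in FPKM, moved with these changes. GPX4 held 9.09 to 11.4% of it in Y6M, 79.02 to 82.3% in Y4Y and 50.1 to 55.8% in CY. In Y18M the share was between 13.6 and 59.5%, highest in Y18M-2. GPX1, the cytosolic peroxidase, held 63.00 to 66.2% in Y6M, 13.8 to 18.5% in Y4Y and 28.6 to 37.05% in CY. The mean GPX4 share in CY minus that in Y4Y was −27.3 percentage points, with no overlap (exact two-sided permutation test, p = 0.1, the smallest that 3 against 3 allows). Groups of 3 that do not overlap always give this p, so it adds nothing to the ranges. For the family as a whole the sum was 489 to 518 FPKM in CY and 1514 to 1715 in Y4Y, and 1142 to 1209 in Y6M.

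**Figure D4:**
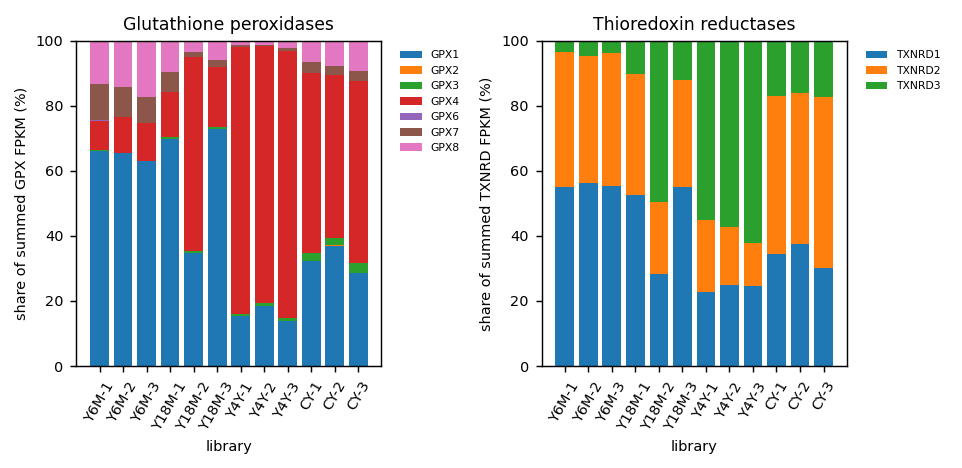
Share of each member in the summed FPKM of the glutathione peroxidases (left) and thioredoxin reductases (right) in each of the 12 libraries; the bars add to 100%. The GPX4 and TXNRD3 shares are largest in the 3 Y4Y libraries and Y18M-2, and CY lies between Y6M and Y4Y for both.

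GPX1 itself was at 786, 791 and 719 FPKM in Y6M, 961, 499.5 and 749 in Y18M, 261, 314 and 209 in Y4Y and 158, 191 and 148 in CY, lowest in CY. It was lower in Y4Y than in Y6M (log2 fold change −2.13, standard error 0.20, adjusted p = 1.81e-05) and lower in CY than in Y6M (log2 fold change −2.75, standard error 0.17, adjusted p = 1.33e-05), while CY against Y4Y did not reach the fold required although the libraries did not overlap (log2 fold change −0.65, standard error 0.18, adjusted p = 0.0113). GPX7 and GPX8, peroxidases of the endoplasmic reticulum, were also highest in Y6M. GPX7 was at 134, 111 and 92.5 FPKM in Y6M, 84.4, 23.6 and 21.2 in Y18M, 6.30, 8.25 and 14.9 in Y4Y and 15.3, 15.2 and 15.7 in CY, so that every Y6M library exceeded every other library. GPX8 was at 157, 173 and 197 FPKM in Y6M, 133, 50.5 and 60.6 in Y18M, 24.2, 20.1 and 33.04 in Y4Y and 32.5, 39.4 and 48.9 in CY, with Y6M again above all others. Both were lower in Y4Y than in Y6M, with −4.12 on the log2 scale (standard error 0.34, adjusted p = 6.77e-06) for GPX7 and −3.34 on the log2 scale (standard error 0.20, adjusted p = 1.16e-06) for GPX8, and lower in CY than in Y6M, with −3.42 on the log2 scale (standard error 0.21, adjusted p = 1.13e-05) and −2.66 on the log2 scale (standard error 0.17, adjusted p = 1.55e-05). Neither was called between CY and Y4Y (0.67 and 0.65 on the log2 scale), though GPX7 was when Y4Y-3 was left out (log2 fold change 1.15, adjusted p = 0.00241).

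GPX3, the secreted plasma peroxidase, was higher in Y4Y and CY than in Y6M, at 2.47, 3.23 and 1.98 FPKM in Y6M, 9.33, 8.96 and 7.15 in Y18M, 11.9, 13.6 and 13.7 in Y4Y and 11.4, 11.3 and 16.2 in CY. All Y6M libraries lay below all others, and Y4Y and CY overlapped. The log2 fold change was 1.78 in Y4Y over Y6M (adjusted p = 3.70e-04) and 1.79 in CY over Y6M (adjusted p = 9.05e-04). GPX2 and GPX6 stayed at or below 0.31 and 1.40 FPKM in all 12 libraries and were not tested in CY over Y4Y.

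Superoxide dismutases were led by different members with age. SOD3, the extracellular copper–zinc enzyme, was at 13262, 10124 and 5811 FPKM in Y6M, 5848, 887 and 488 in Y18M, 139.7, 118 and 145 in Y4Y and 497, 672 and 569 in CY. It ranked 9 among all genes in Y6M, 1314 in Y4Y and 287 in CY. Y18M-1 lay close to the lowest Y6M library, while Y18M-2 and Y18M-3 were far lower, and CY lay above Y4Y and below Y6M without overlap. It was lower in Y4Y than in Y6M (log2 fold change −6.71, standard error 0.45, adjusted p = 1.93e-06) and in CY than in Y6M (log2 fold change −4.62, standard error 0.40, adjusted p = 4.95e-05), and higher in CY than in Y4Y (log2 fold change 2.07, standard error 0.15, adjusted p = 9.56e-06). The last call was lost when all 12 libraries shared one estimate of the spread (log2 fold change 2.09, adjusted p = 0.0535).

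SOD1, the cytosolic enzyme, was at 738, 1121 and 892 FPKM in Y6M, 1169, 1224 and 1313 in Y18M, 995, 1066 and 1419 in Y4Y and 1906, 1823 and 1899 in CY. CY was above every other library in FPKM, but the fold was too small for a call against Y4Y (log2 fold change 0.71, standard error 0.15, adjusted p = 0.00338). In FPKM 50.8% of all genes had CY wholly above Y6M. SOD1 was called in CY over Y6M only with library size alone or limma on FPKM. Of the SOD1 and SOD3 sum, SOD3 made up 86.7 to 94.7% in Y6M, 9.26 to 12.3% in Y4Y and 20.7 to 26.9% in CY. Catalase, which breaks down hydrogen peroxide in peroxisomes, was at 125, 184 and 212 FPKM in Y6M, 169, 76.9 and 117 in Y18M, 33.7, 27.1 and 37.2 in Y4Y and 69.5, 80.9 and 66.3 in CY. CY lay above Y4Y and below Y6M with no overlap. CAT was 2.23-fold higher in CY than in Y4Y (log2 fold change 1.16, standard error 0.15, adjusted p = 2.49e-04), lower in CY than in Y6M (log2 fold change −1.79, standard error 0.18, adjusted p = 9.89e-05) and lower in Y4Y than in Y6M (log2 fold change −2.96, standard error 0.21, adjusted p = 2.64e-06).

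Of the 5 peroxiredoxins, the thiol peroxidases that remove hydrogen peroxide, 4 were higher in CY than in Y4Y, as were the spermatogonia, Sertoli, Leydig and myoid marker sums, whose part in this was not tested. PRDX1, cytosolic and the most abundant member of the family in CY, was at 429, 681 and 684 FPKM in Y6M, 734, 641 and 1119.5 in Y18M, 476, 427 and 559.6 in Y4Y and 1534, 1468 and 1255 in CY. PRDX2, its cytosolic paralogue, was at 195, 252 and 253 FPKM in Y6M, 281, 154 and 239 in Y18M, 91.8, 78.9 and 80.9 in Y4Y and 315, 408 and 323 in CY. PRDX3, the mitochondrial form, was at 89.3, 138 and 177 FPKM in Y6M, 131, 93.5 and 112 in Y18M, 59.8, 57.6 and 66.1 in Y4Y and 212, 181 and 202 in CY. For these 3 genes each CY library exceeded each Y4Y library, and for PRDX2 and PRDX3 Y4Y also lay below each Y6M library. CY over Y4Y gave 1.55 on the log2 scale (standard error 0.15, adjusted p = 4.02e-05) for PRDX1, 2.06 on the log2 scale (standard error 0.15, adjusted p = 8.54e-06) for PRDX2 and 1.71 on the log2 scale (standard error 0.12, adjusted p = 8.69e-06) for PRDX3.

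PRDX6, the 1-cysteine form that also acts on phospholipids, was at 286, 397 and 388 FPKM in Y6M, 307, 282 and 488 in Y18M, 247, 248 and 205 in Y4Y and 688, 862 and 758 in CY and was the second most abundant of the family in CY. All CY libraries were above all others, and CY over Y4Y gave 1.73 on the log2 scale (standard error 0.14, adjusted p = 1.73e-05). PRDX4, the form of the endoplasmic reticulum and acrosome, was the exception, at 427, 344 and 342 FPKM in Y6M, 327, 369.7 and 195 in Y18M, 419, 362 and 357 in Y4Y and 320.3, 319 and 326 in CY. It was not called in CY over Y4Y (log2 fold change −0.23, standard error 0.12, adjusted p = 0.129), although each CY library was below each Y4Y library. PRDX4 made up 28.1 to 32.4% of the summed peroxiredoxin FPKM in Y4Y and 9.84 to 11.4% in CY, with a mean in CY minus that in Y4Y of −19.9 percentage points (exact two-sided permutation test, p = 0.1, again fixed by the lack of overlap). The family sum was 2863 to 3239 FPKM in CY, 1173 to 1294 in Y4Y and 1425 to 1844 in Y6M. In CY over Y6M none of the 5 was called; PRDX1 and PRDX6 were called higher only with library size alone or limma on FPKM.

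**Figure D5:**
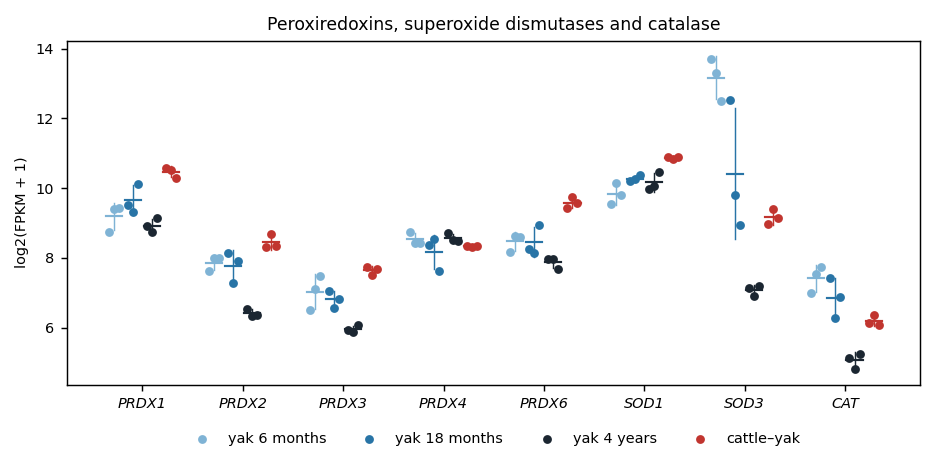
Footprint levels of the 5 peroxiredoxins, SOD1, SOD3 and CAT, as log2(FPKM + 1) on the y axis; each point is a library, horizontal bars are group means and vertical bars the standard deviation of 3 libraries. Cattle–yak libraries lie above the 4-year yak libraries for each gene except PRDX4, and SOD3 falls from the 6-month to the 4-year libraries.

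The 3 thioredoxin reductases summed to 23.01 to 31.7 FPKM in Y6M, 84.9 to 93.9 in Y4Y and 56.5 to 62.1 in CY. TXNRD1, the cytosolic enzyme, was between 12.7 and 31.1 FPKM across the 12 libraries and was not called in any comparison. TXNRD2, the mitochondrial enzyme, was at 9.59, 12.4 and 12.8 FPKM in Y6M, 13.8, 16 and 18.6 in Y18M, 20.98, 15 and 11.9 in Y4Y and 27.5, 28.8 and 31.3 in CY. CY was above every other library in FPKM, with 0.86 on the log2 scale (standard error 0.21, adjusted p = 0.00726) against Y4Y, under the fold required, and a call without Y4Y-1 (log2 fold change 1.22, adjusted p = 9.36e-04). TXNRD2 was called in CY over Y6M only with library size alone or limma on FPKM. TXNRD3 was 3.35 to 4.66% of the 3 summed in Y6M, 54.97 to 62.2% in Y4Y and 16.2 to 17.2% in CY, and the mean share in CY minus that in Y4Y was −41.4 percentage points (exact two-sided permutation test, p = 0.1, again fixed by the lack of overlap).

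Among the 11 TXNDC, TXNL and TXNIP genes, 2 were higher in CY than in Y4Y and 1, TXNDC8, was lower, where 17.1% and 27.0% of all genes tested were called in those directions. TXNIP, the thioredoxin-binding protein that restrains glucose uptake, was at 86.98, 149.7 and 156 FPKM in Y6M, 141, 101 and 139 in Y18M, 73.5, 52.5 and 79.96 in Y4Y and 243, 161 and 247 in CY. CY exceeded Y6M and Y4Y in all libraries in FPKM, and CY over Y4Y gave 1.67 on the log2 scale (standard error 0.22, adjusted p = 2.53e-04). CY over Y6M did not call TXNIP. TXNDC17, a cytosolic thioredoxin-related protein, was at 26.04, 23.8 and 21.99 FPKM in Y6M, 31.1, 26.7 and 43.3 in Y18M, 28.97, 25.8 and 27.7 in Y4Y and 87.8, 83.5 and 70.4 in CY. CY exceeded all 9 yak libraries, and was higher than both Y4Y (log2 fold change 1.58, standard error 0.15, adjusted p = 4.62e-05) and Y6M (log2 fold change 1.11, standard error 0.17, adjusted p = 7.34e-04). TXNDC15, a membrane protein of the endoplasmic reticulum needed for cilia, was at 44.2, 33.5 and 31.6 FPKM in Y6M, 33.3, 23.9 and 20.9 in Y18M, 22.96, 24.7 and 26.5 in Y4Y and 12.8, 17.4 and 9.69 in CY. It was lowest in CY without overlap, with a call against Y6M (log2 fold change −2.01, standard error 0.27, adjusted p = 4.07e-04) but against Y4Y only without CY-2 (log2 fold change −1.11, adjusted p = 0.00167). With CY-2, CY over Y4Y gave −0.88 on the log2 scale (standard error 0.22, adjusted p = 0.00671), short of the fold required. Y4Y over Y6M also called TXNDC15 lower (log2 fold change −1.15, standard error 0.20, adjusted p = 7.99e-04), but not without Y6M-1 (log2 fold change −0.90, adjusted p = 4.36e-04), with library size alone (−0.56) or with limma (−0.53 and −0.54). TXNL4A, a spliceosome protein of the same fold, was lower in Y4Y than in Y6M (log2 fold change −1.21, standard error 0.17, adjusted p = 2.36e-04) at 74.2, 101 and 78.2 FPKM in Y6M, 89.3, 62.1 and 57.03 in Y18M, 58.6, 57.8 and 44.9 in Y4Y and 95.9, 79.2 and 90.8 in CY. That call was lost with library size alone (−0.65) and with limma (−0.64 and −0.65). The other 6 (TXNDC9, TXNDC11, TXNDC12, TXNDC16, TXNL1 and TXNL4B) had log2 fold changes between −0.64 and 0.80 in CY over Y4Y. The authors' length estimate for TXNDC12 varied among libraries, so its FPKM, between 167 and 388, is less certain.

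In glutathione synthesis GCLC and GSS were higher in CY than in Y4Y and GCLM was not called. GCLC, the catalytic subunit of the first and rate-limiting step, was at 23.7, 39.8 and 41.3 FPKM in Y6M, 31.03, 25.7 and 26.6 in Y18M, 15.7, 15.7 and 15.2 in Y4Y and 29.1, 33.04 and 31.1 in CY. Y4Y was the lowest group, with no library reaching any of the others. CY over Y4Y gave 1.01 on the log2 scale (standard error 0.11, adjusted p = 9.51e-05), a fold at the threshold; GCLC was not called with DESeq2, RLE scaling, limma or without CY-2 (log2 fold changes 0.96 to 0.99). GCLM, the modifier subunit, was at 21.5, 35.04 and 25.4 FPKM in Y6M, 32.4, 39.4 and 45.4 in Y18M, 43.9, 36.4 and 39.3 in Y4Y and 37.5, 34.8 and 37.05 in CY. CY overlapped both Y4Y and Y6M, and CY over Y4Y gave −0.12 on the log2 scale (standard error 0.13, adjusted p = 0.453). GSS was at 13.9, 11.9 and 17.4 FPKM in Y6M, 19.2, 21.9 and 32.6 in Y18M, 20.3, 16.6 and 19.5 in Y4Y and 42.5, 41.9 and 43.6 in CY. CY was above all yak libraries, higher than Y4Y (log2 fold change 1.19, standard error 0.13, adjusted p = 7.50e-05) and than Y6M (log2 fold change 1.01, standard error 0.17, adjusted p = 0.00137), the second of which fell under the required fold without Y6M-2 (log2 fold change 0.84, adjusted p = 0.00317) and with upper quartile scaling (log2 fold change 0.96, adjusted p = 0.00169).

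The cytosolic glutathione transferases held the most abundant member of the set in the mature yak and in CY. GSTM3, a mu-class enzyme of testis and brain, was at 2879, 3939.9 and 3385 FPKM in Y6M, 3903, 3334 and 4582 in Y18M, 3051, 2608 and 2704 in Y4Y and 4869.9, 5948 and 4981 in CY. It ranked 27 among all genes in Y6M, 23 in Y4Y and 14 in CY. All CY libraries lay above all yak libraries in FPKM, but the difference from Y4Y was under the fold required (log2 fold change 0.93, standard error 0.14, adjusted p = 6.29e-04) and passed it without Y4Y-1 (log2 fold change 1.10, adjusted p = 8.46e-04). In FPKM 50.8% of all genes had CY wholly above Y6M, and GSTM3 was not called in CY over Y6M. Its reads can be shared with other mu-class rows, as can those of the alpha- and theta-class rows among their copies, so the split between them is uncertain.

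GSTA4, an alpha-class enzyme that conjugates the lipid peroxidation product hydroxynonenal, was at 122, 180.5 and 201 FPKM in Y6M, 186, 162 and 178 in Y18M, 69.4, 73.6 and 123 in Y4Y and 277, 244 and 345 in CY. CY was above every yak library in FPKM and was called against Y4Y (log2 fold change 1.72, standard error 0.23, adjusted p = 2.80e-04) but not against Y6M. GSTK1, the kappa-class enzyme of mitochondria and peroxisomes, was at 36.1, 41.1 and 25.7 FPKM in Y6M, 40.8, 23.1 and 29.7 in Y18M, 20.1, 23.1 and 17.1 in Y4Y and 40.7, 46.1 and 48.2 in CY. CY exceeded all Y4Y libraries (log2 fold change 1.04, standard error 0.16, adjusted p = 5.74e-04), but the fold fell under the threshold without Y4Y-3 (log2 fold change 0.996, adjusted p = 0.00158). GSTZ1, which isomerizes maleylacetoacetate in tyrosine breakdown, stayed between 19.8 and 36.4 FPKM with no call. With GSTO2 and GSTT4, 2 of the 7 cytosolic transferases were higher, 2 lower and 3 not called in CY over Y4Y.

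Of the 3 microsomal transferases, MGST1, which protects membranes from lipid peroxidation, was at 164, 186 and 216 FPKM in Y6M, 222, 124 and 187 in Y18M, 121, 110.3 and 88.4 in Y4Y and 316, 317 and 371 in CY. CY was above every yak library in FPKM, and CY over Y4Y gave 1.66 on the log2 scale (standard error 0.15, adjusted p = 3.22e-05). CY over Y6M did not call MGST1. MGST3, which also takes part in leukotriene metabolism, was at 93.2, 144 and 114 FPKM in Y6M, 117, 52.3 and 87.98 in Y18M, 23.7, 30.1 and 27.6 in Y4Y and 63.7, 69.8 and 65.5 in CY. CY was higher than Y4Y (log2 fold change 1.30, standard error 0.14, adjusted p = 7.24e-05) and lower than Y6M (log2 fold change −1.35, standard error 0.14, adjusted p = 1.38e-04), with no overlap in either case. MGST2 was at 47.6, 35.3 and 35.6 FPKM in Y6M, 36.7, 16.9 and 14.6 in Y18M, 15.03, 8.22 and 17.2 in Y4Y and 20.1, 20.99 and 18.8 in CY, with Y6M above Y4Y and CY. It was lower in Y4Y than in Y6M (log2 fold change −2.22, standard error 0.30, adjusted p = 1.53e-04) and in CY than in Y6M (log2 fold change −1.49, standard error 0.22, adjusted p = 7.24e-04), and was not called between CY and Y4Y (log2 fold change 0.71, standard error 0.25, adjusted p = 0.0348). The calls of MGST2, MGST3 and GSTO1 in CY over Y6M were lost with library size alone, at log2 fold changes of −0.93, −0.82 and −0.59.

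NQO1, the quinone reductase and a common reporter of NFE2L2 activity, was at 28.5, 53.4 and 50.4 FPKM in Y6M, 54.6, 34.3 and 67.4 in Y18M, 16.4, 10.4 and 13.8 in Y4Y and 38.04, 65.99 and 46.5 in CY. Y4Y was below every other library. NQO1 was higher in CY than in Y4Y (log2 fold change 1.89, standard error 0.24, adjusted p = 1.98e-04), lower in Y4Y than in Y6M (log2 fold change −2.23, standard error 0.24, adjusted p = 4.11e-05) and not called in CY over Y6M (−0.32 on the log2 scale). HMOX1, the inducible heme oxygenase, was at 24.3, 32.2 and 55.4 FPKM in Y6M, 31.1, 19.9 and 45.5 in Y18M, 36.3, 40.1 and 19.1 in Y4Y and 31.1, 43.7 and 41.8 in CY. Its groups overlapped in all comparisons, and CY over Y4Y gave 0.29 on the log2 scale (standard error 0.27, adjusted p = 0.362).

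The comparison of CY with Y6M sets the hybrid beside a testis before puberty, with age and genotype changing together. Of 40 members tested, 5 were higher in CY (TXNRD3, GPX3, GSTT4, TXNDC17 and GSS) and 9 lower (SOD3, GPX7, GPX1, GPX8, TXNDC15, CAT, MGST2, MGST3 and GSTO1), or 12.5% and 22.5%, against 18.1% and 19.7% of 15571 genes. The median log2 fold change of the members was −0.10. In FPKM, 22 members lay wholly above and 10 wholly below Y6M, against 50.8% and 19.0% of all genes, and with library size alone in place of TMM 12 members were called higher and 6 lower, while the median of all genes moved from −0.02 to 0.52.

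Of the 18 rows without a symbol, those described as thioredoxin, glutathione reductase and manganese superoxide dismutase are central to the pathway. Thioredoxin, the electron donor of the peroxiredoxins, was at 246, 343 and 329.7 FPKM in Y6M, 289, 219 and 305 in Y18M, 99.99, 81.4 and 96.8 in Y4Y and 368, 391 and 359.8 in CY. It was lowest in Y4Y without overlap, with 2.09 on the log2 scale (standard error 0.13, adjusted p = 5.03e-06) in CY over Y4Y and −2.30 on the log2 scale (standard error 0.16, adjusted p = 2.66e-06) in Y4Y over Y6M. Glutathione reductase, which regenerates glutathione with NADPH, was at 19.7, 24.4 and 22.7 FPKM in Y6M, 32.9, 39.9 and 65.3 in Y18M, 30.5, 30.5 and 32.3 in Y4Y and 110.4, 111 and 90.8 in CY. Each CY library exceeded each yak library, and CY was higher than Y4Y (log2 fold change 1.76, standard error 0.13, adjusted p = 1.02e-05) and Y6M (log2 fold change 1.69, standard error 0.13, adjusted p = 3.60e-05). A second row described as glutathione reductase stayed at or below 4.35 FPKM and was at 0 in all of Y4Y. The mitochondrial forms were also higher in CY than in Y4Y, manganese superoxide dismutase with 1.06 on the log2 scale (standard error 0.13, adjusted p = 1.65e-04) and mitochondrial thioredoxin with 1.43 on the log2 scale (standard error 0.12, adjusted p = 2.23e-05).

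Heme oxygenase 2, the constitutive form, ran opposite to these, at 21.3, 26.6 and 29.7 FPKM in Y6M, 38.1, 118 and 54.8 in Y18M, 171, 152 and 145 in Y4Y and 49.8, 43.9 and 42.3 in CY. It was lower in CY than in Y4Y (log2 fold change −1.77, standard error 0.14, adjusted p = 1.29e-05) and higher in Y4Y than in Y6M (log2 fold change 2.03, standard error 0.15, adjusted p = 4.10e-06), with Y18M-2 the closest yak library to Y4Y. Thioredoxin domain-containing protein 2 was at 0, 0 and 0.090 FPKM in Y6M and 0, 7.30 and 0 in Y18M. It was at 6.32, 10 and 10.8 in Y4Y and 0, 0 and 0 in CY. Y4Y was at least 44.2-fold above CY in counts scaled to library size, taking 3 counts per library as the floor. The row described as glutathione S-transferase A1 was at 3524, 4341 and 4854 FPKM in Y6M, 5346, 2852 and 2701 in Y18M, 1769, 809 and 1948 in Y4Y and 6374, 4333 and 5418 in CY. It was higher in CY than in Y4Y (log2 fold change 1.88, standard error 0.32, adjusted p = 0.00106), as was the Mu 1 row (log2 fold change 2.15, standard error 0.28, adjusted p = 2.23e-04), which was at 705, 919 and 916 FPKM in Y6M, 809, 411 and 587 in Y18M, 222, 102 and 267 in Y4Y and 783, 853 and 1029 in CY. Of the 3 rows described as theta-1, 1 was lower in CY (log2 fold change −1.75, standard error 0.17, adjusted p = 4.15e-05), 1 higher (log2 fold change 1.25, standard error 0.29, adjusted p = 0.00554) and 1 not called.

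Genes of the wider pathway that are not members were taken from a list of 64 symbols, of which 47 had a row and 46 were tested in CY over Y4Y. There, 15 were higher and 4 lower, against 17.1% and 27.0% of all genes tested, with a median log2 fold change of 0.54. Among the NADPH-producing enzymes, 5 that were higher in CY had log2 fold changes of 2.22 for IDH2, 2.14 for PGD, 1.93 for ME1, 1.47 for IDH1 and 1.01 for NNT. NFE2L2, the transcription factor that drives many of the members, was at 48.1, 52.9 and 49.1 FPKM in Y6M, 47.03, 28.1 and 39.9 in Y18M, 16.5, 13.9 and 16.9 in Y4Y and 51.3, 48.6 and 46.6 in CY. It was lowest in Y4Y, higher in CY than in Y4Y (log2 fold change 1.69, standard error 0.12, adjusted p = 7.55e-06) and not called in CY over Y6M (log2 fold change −0.52). Of the 5 regulators tested, 1 was called higher in CY than in Y4Y and 4 were not called. Any part of NFE2L2 in the levels of the members was not tested.

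Selenoprotein synthesis, on which GPX4 and the thioredoxin reductases depend, held 6 tested genes. Of these, 1 was lower in CY and none higher, against 27.0% and 17.1% of all genes tested. The median log2 fold change of the 6 was 0.05. Of the 5 not called, some had all CY libraries above all Y4Y libraries in FPKM and others had them below. The gene called lower was SEPHS2, selenophosphate synthetase. SEPHS2 was at 3.36, 4.54 and 5.13 FPKM in Y6M and 5.44, 33.2 and 4.22 in Y18M. It was at 49.5, 46.8 and 63.3 in Y4Y and 6.91, 5.36 and 4.87 in CY. It was high in the Y4Y libraries and Y18M-2 only, with −3.20 on the log2 scale (standard error 0.20, adjusted p = 4.77e-06) in CY over Y4Y and 3.05 on the log2 scale (standard error 0.19, adjusted p = 1.31e-06) in Y4Y over Y6M. Among the enzymes of cysteine supply and glutathione breakdown, CTH, which releases cysteine from cystathionine, was lower in CY than in Y4Y (log2 fold change −1.85, standard error 0.40, adjusted p = 0.00372), and OPLAH, which recycles oxoproline to glutamate, was also lower (log2 fold change −2.93, standard error 0.23, adjusted p = 1.52e-05). Others of the list were higher, among them the mitochondrial persulfide dioxygenase ETHE1, with a log2 fold change of 2.48. Of the 7 repair genes tested, SESN1, SESN2 and MSRB1 were higher, with log2 fold changes of 1.40, 1.52 and 1.01. The other 4 were not called, and the sestrin among them lay lower in CY (1.97 to 3.55 FPKM) than in Y4Y (4.94 to 5.80). Also higher were LAP3, a peptidase, by 2.82-fold, and DPEP1, another peptidase, ESD and BLVRA. For the last 3 the log2 fold changes were 1.02 for DPEP1, 1.42 for ESD, which releases glutathione from S-formylglutathione, and 1.35 for BLVRA, which reduces biliverdin to bilirubin.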

How the data were processed

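The 12 libraries were ribosome footprints of testis. Per the labels, the authors digested rRNA with antisense probes and RNase H and used Bowtie2 and RSEM. The study's methods give STAR for alignment and BosGru 3.0 as the genome. The deposited tables hold, per gene and library, expected counts, all whole numbers here, and FPKM, which the authors scaled for gene length and library size. The shared columns of the tables were identical. Columns with the authors' own fold changes and p-values and their group means were not used, and translation efficiency was not analysed here.

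Depth is given by total counts, and intervals and floors cover counting error only, since the reads carry no molecular identifiers. Counts were tested for each pair of groups with edgeR 4.0.16 (quasi-likelihood, filterByExpr, TMM scaling, R 4.3.3), on the 6 libraries of the pair. Benjamini-Hochberg adjustment was over all genes tested. Calls were made where the adjusted p was under 0.05 and the log2 fold change at least 1 in size. The standard error was the log2 fold change divided by the square root of F. The code was tested on simulated data. Alternatives were DESeq2 1.42.0, other scalings, no count filter, all 12 libraries in 1 fit, limma 3.58.1 on log2(FPKM + 1) and log2(FPKM + 0.1), a replicate block and leaving out each library. The comparison of Y4Y with Y6M was added after the data were seen.

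All members could be named. Values in every library are given for members called in CY over Y4Y or an age comparison whose groups do not overlap and whose mean FPKM reaches 5 in a group, and for catalase, SOD1, GPX4, GSR and GCLC; a few others are shown for contrast. Other pathway genes could be named where called in CY over Y4Y with a mean FPKM of 5 or more. One gene of that list is not reported here. The members and lists were chosen with earlier results of these data known, and the rows without a symbol were picked by description after values were seen. Whether replicate numbers pair libraries is not known from the labels.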

Additional observations from a re-analysis of the deposited data

How the results depend on the processing

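In CY over Y4Y, 14 to 17 members were higher and 5 to 6 lower when each library was left out in turn, and no other alternative moved these counts by more than 1.5 times. GCLC was lost with DESeq2, RLE scaling, limma and without CY-2, GSTK1 without Y4Y-3, and SOD3 with all 12 libraries in 1 fit. No called value changed sign under any alternative run. Against Y6M the scaling decided part of the calls. In CY over Y6M, 12 members were higher with library size alone and 12 with either limma setting, against 5, and 3 to 5 with a library left out; the share of calls that were higher over all genes went from 47.9% to 72.2% with library size alone. In Y4Y over Y6M, 12 members were lower with library size alone and 12 with either limma setting, against 19, and 18 to 20 with a library left out, and the share went from 55.7% to 72.6%. In Y18M over Y6M, where edgeR called none, DESeq2 gave 2 higher and 3 lower, all 12 libraries in 1 fit gave 4 and 1, limma gave 1 higher with either pseudocount, and leaving out a library gave 0 to 2 higher and 0 to 8 lower, the most without Y18M-1. In Y4Y over Y18M, DESeq2 gave 2 higher and 12 lower, the fit of all 12 libraries 2 and 13, and leaving out a library 0 to 5 and 0 to 16, the most without Y18M-2. Over all genes, edgeR called 3 higher and 7 lower in Y18M over Y6M and DESeq2 1061 and 807, and 0 and 6 against 2092 and 2291 in Y4Y over Y18M. Library size alone moved the median log2 fold change of all genes to 0.42 in Y18M over Y6M and 0.19 in Y4Y over Y18M, and to −0.01 in CY over Y4Y. The cause of these differences was not tested.

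A replicate block, pairing libraries of the same number, gave 15 members higher and 5 lower in CY over Y4Y, 5 and 9 in CY over Y6M, 6 and 19 in Y4Y over Y6M, and 0 in both comparisons with Y18M. The labels do not say what the numbers mean. In no pair of groups was the correlation of deviations above 0.1 for all 3 same-numbered libraries. With deviations from means of 3 libraries, this cannot show whether equal numbers share a day or batch. Depth limits the lowest genes: GPX2 and GPX6 were not tested in CY over Y4Y.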
